A study of Homo sapiens with 12 samples.

Results

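RNA clusters that lay just past the annotated end of protein-coding genes were examined for IGF2BP1, IGF2BP2, IGF2BP3, METTL1 and WDR4. A cluster is a stretch of RNA to which a protein was crosslinked, as called by the authors from PAR-CLIP, in which living cells take up 4-thiouridine (4SU), are irradiated with ultraviolet light, and the RNA fragments left by RNase T1 are precipitated with the protein and sequenced. A cluster was a member when its midpoint lay in no GENCODE release 44 gene on its own strand and at most 5000 nt downstream of the end of a protein-coding gene on that strand. By this rule 3622 of the 96139 clusters on chromosomes 1 to 22, X and Y were members. They merged into 1762 sites downstream of 1065 genes. No measured level was used to choose them, since the deposited clusters carry a position and no read count. Smallest distances ran down to 2 nt, and 419 members lay in the last 1000 nt before the limit, while 354 other clusters lay in the first 1000 nt beyond it.

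All 12 libraries came from wildtype HepG2, a human liver cancer cell line, treated with 4SU and with no genetic change. There were 2 libraries each for IGF2BP1, IGF2BP2, METTL1 and WDR4, and 4 for IGF2BP3, of which 2 carry the label bio2. The labels describe plates seeded for each replicate but do not say which replicates were separate cultures, so p-values measure the spread between these libraries, which may be technical. The libraries held 4581 to 15701 clusters as deposited, and no library of input RNA or RNA level was used here, so stronger binding and more abundant RNA cannot be told apart. The liver genes APOB, SERPINA1 and FGB had an exonic cluster in all 12 libraries, ALB in 10, AFP in 5, APOA1 in 1 and TTR in 0. PTPRC, PECAM1 and COL1A2, which mark leukocytes, endothelium and fibroblasts, had an exonic cluster in 0 libraries. Replicates agreed least for METTL1 and WDR4, and the bio2 libraries stood apart from the other IGF2BP3 libraries, so results whose call turns on them are also given without them.

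A gene ends, in the annotation, where its mature RNA is cut and given a poly(A) tail. The cut is directed by a hexamer, most often AATAAA or ATTAAA in DNA letters, a short way before it, and RNA polymerase continues past the cut before it is released. IGF2BP1, IGF2BP2 and IGF2BP3 are cytoplasmic mRNA-binding proteins of 1 family that act on the stability and translation of their targets and mostly contact 3' UTRs, often at CA-rich sequences. METTL1 is a methyltransferase that places N7-methylguanosine on tRNA and, per the paper, at a subset of internal mRNA sites, and WDR4 is its partner subunit.

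The sites that recurred in the most libraries show what such positions look like. Each sequence is the 30 nt around the middle of the stretch that the most clusters of a site cover, 5' to 3' on the strand given, from the hg38 reference, with every CATA, CATC or CATT in capitals. These letters are the DNA form of CAUH, a motif tied to IGF2BP binding. The first set holds some of the sites that lie in no RefSeq gene and in which the central 20 nt of the widest cluster occur once in the genome. A second ONECUT1 site and sites past ALYREF and GTF3C6 also meet this rule but are not printed, and their 30 nt hold 0 of these motifs.
ONECUT1 (chr15:52753260-52753289, minus strand): agatattttcatgcacggtctcagtctgca
BPIFB2 (chr20:33025140-33025169, plus strand): actcactaccCATCaatcCATAtaacCATC
PCBP2 (chr12:53485504-53485533, plus strand): cacacccctccacacacctCATCtaactct
PCSK2 (chr20:17489106-17489135, plus strand): cacaagtgcacgtgttaggacctgaaagat
LEAP2 (chr5:132875595-132875624, plus strand): tttctatactctcaataccacaaaatacat
PDCD10 (chr3:167681456-167681485, minus strand): CATCtatatcCATCtCATTtttaCATCtgt
UGDH (chr4:39498316-39498345, minus strand): caaatccctaCATAatatcctcaactttac
METTL7B (chr12:55686053-55686082, plus strand): ttctaattacctctcacctcaCATCactct
The second set shows sites that lie past the GENCODE end but inside the longer RefSeq model of the same gene.
RGP1 (chr9:35758739-35758768, plus strand): ctataaattctctccctcctctcaactcta
RGP1, further downstream (chr9:35759107-35759136, plus strand): ctcaaattCATAtccacttcaaactctccc
ZC3HAV1L (chr7:139023872-139023901, minus strand): caaaaacctttcaaatatttatccttctct
The third set shows sites whose sequence occurs more than once in the genome. A site of this kind past CRCP is not printed, and its 30 nt hold 0 of these motifs.
RNF141 (chr11:10509656-10509685, minus strand): tggcggtgcttCATAtccctctagaggagc
RETSAT (chr2:85341084-85341113, minus strand): ctttataattttactcactcactctgattt
ENSG00000269242 (chr19:12643225-12643254, minus strand): ccctcttaatactcaccaataaattctact
GPD1L (chr3:32169039-32169068, plus strand): tctctacctctctacctctctacctctcta

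ONECUT1, which encodes a hepatocyte transcription factor, had the most widely shared single-copy site. It lay at chr15:52753248-52753287 on the minus strand, 1779 nt past the end of the gene, and was found in all 12 libraries. It covered 40 nt in 11 libraries and 26 nt in the other. A second site directly beside it, at chr15:52753202-52753247, was found in 9 libraries, and ONECUT1 had 5 sites in all, 810 to 3879 nt past its end, with 2 to 4 clusters in every library. The gene had a 3' UTR cluster in 5 libraries, none of them a METTL1 or WDR4 library.

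BPIFB2, a member of the BPI fold family of lipid-binding proteins, had a site at chr20:33025109-33025301 on the plus strand, 1441 nt past its end, in 11 libraries. It was absent from METTL1 replicate 1 alone. Downstream of this gene 51 clusters were called, all of them with CATA, CATC or CATT in the 41 nt around the midpoint, and their number per library was 6 to 8 in the IGF2BP libraries without the bio2 label, 1 in each bio2 library, 0 and 1 in METTL1 and 2 and 3 in WDR4. Only 14 of the 51 had a centre that occurs once in the genome. The gene had a 3' UTR cluster in 10 libraries.

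The clusters past PDCD10 came from the IGF2BP libraries but for 1. PDCD10 encodes a scaffold protein mutated in cerebral cavernous malformations, and its widest shared site, at chr3:167681457-167681504 on the minus strand, 1818 nt past the end, was found in all 8 IGF2BP libraries and in WDR4 replicate 2. All 30 clusters past PDCD10 were single-copy and all 30 held CATA, CATC or CATT. There were 5 and 5 in IGF2BP1, 1 and 1 in IGF2BP2, 4 and 5 in IGF2BP3, 4 and 4 in the bio2 libraries, 0 and 0 in METTL1 and 0 and 1 in WDR4. The gene had a 3' UTR cluster in 0 libraries.

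METTL7B and UGDH had shared sites in the 8 IGF2BP libraries and in 0 of the 4 METTL1 and WDR4 libraries. METTL7B, a membrane-bound methyltransferase of liver, had its site at chr12:55686048-55686105, 1456 nt past the end, and all 22 of its downstream clusters were single-copy and held the motif. UGDH, the enzyme that makes UDP-glucuronate, had its site at chr4:39498310-39498350, 425 nt past the end. UGDH itself had a 3' UTR cluster in all 12 libraries, those of METTL1 and WDR4 included, while METTL7B had one in the 2 bio2 libraries alone. These sites were named for the number of libraries they were in, and no test was made of any 1 site.

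PCBP2, PCSK2 and LEAP2 were shared by both families. PCBP2, a poly(C)-binding protein, had a site at chr12:53485496-53485534, 4353 nt past its end, in 10 libraries: all 8 of IGF2BP, METTL1 replicate 1 and WDR4 replicate 1. PCSK2, a prohormone convertase, had a site at chr20:17489101-17489133, 4539 nt past its end, in 10 libraries, with neither IGF2BP3 library without the bio2 label among them. LEAP2, which encodes a liver-expressed peptide, had a site at chr5:132875584-132875640, 563 nt past its end, in 9 libraries, none with the bio2 label. All 3 genes' clusters were single-copy, 10 of 10 for PCBP2, 10 of 10 for PCSK2 and 16 of 16 for LEAP2. The sites of PCBP2, LEAP2 and METTL7B also lay within a gene on the other strand. Further single-copy sites of the same rule were past ALYREF, an mRNA export adaptor, at 232 nt, GTF3C6, a subunit of transcription factor TFIIIC, at 292 nt, and CDCA2, a mitotic regulator, at 2294 nt, each in 8 or 9 libraries. Of all downstream clusters of these genes, 24 of 42 for ALYREF, 9 of 32 for GTF3C6 and 18 of 18 for CDCA2 were single-copy.

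**Figure D1:**
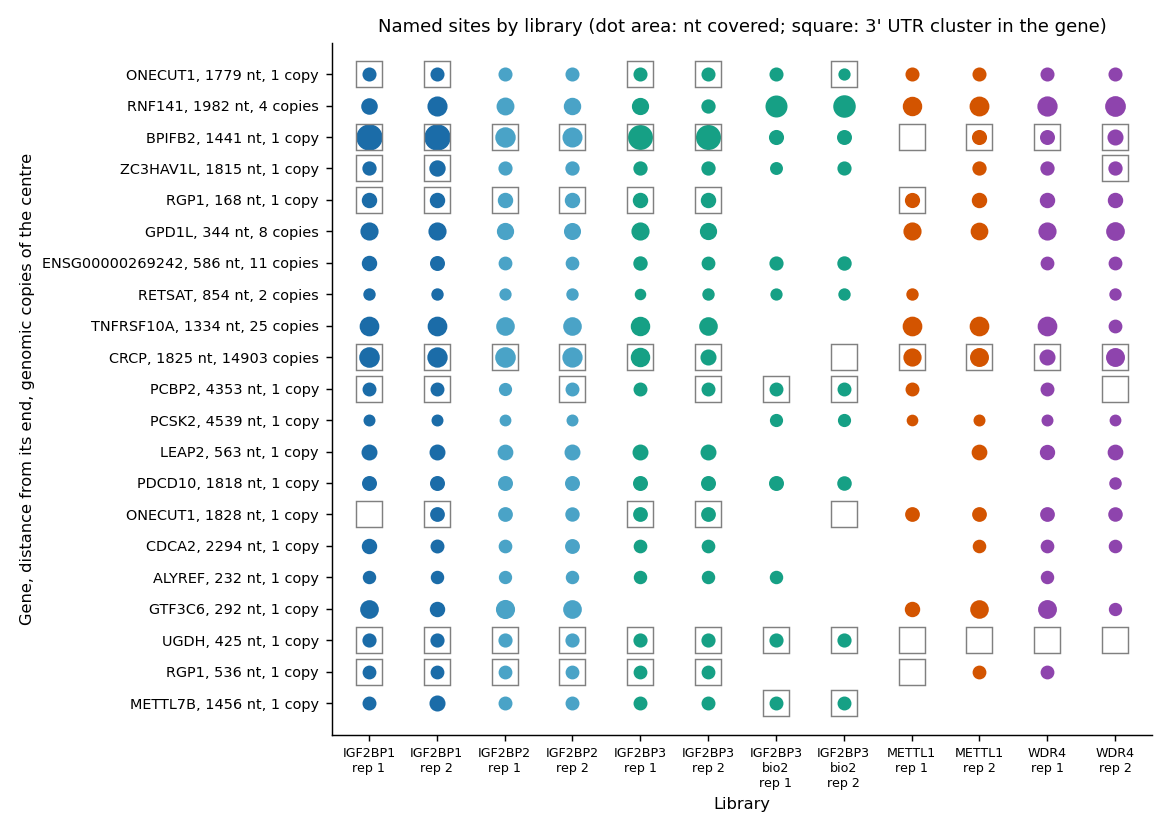
The sites found in the most libraries (rows, with the gene, the distance of the site from the gene end and the number of genomic copies of its central 20 nt) across the 12 libraries (columns). A dot marks a library with a cluster, its area grows with the nt covered, and a grey square marks a library in which the gene had a 3' UTR cluster; ONECUT1 at 1779 nt and RNF141 are filled in all 12 columns, and METTL7B and UGDH in the 8 IGF2BP columns.

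For RGP1 and ZC3HAV1L the sites were downstream of the gene only by the GENCODE end. RGP1, a subunit of an exchange factor for the Golgi GTPase RAB6A, had a site at chr9:35758729-35758780, 168 nt past that end, in 10 libraries and a second at chr9:35759103-35759140 in 8 libraries. All 20 of its downstream clusters lay in the RefSeq model of RGP1. ZC3HAV1L, a relative of the zinc finger antiviral protein, had a site at chr7:139023852-139023912 on the minus strand in 11 libraries, and all 27 of its downstream clusters lay in its RefSeq model. Over all members, 419 (11.6%) lay in a RefSeq gene on the same strand and 329 of these in the same gene drawn longer. Of the 419, 344 were in protein-coding genes, 46 in lncRNA genes, 23 in pseudogenes and 6 in transcribed pseudogenes. No member overlapped any of the 465 tRNA genes or another small RNA gene of the RefSeq table (0 of 3622), although 105 of the 14901 intergenic clusters overlapped a small RNA gene.

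RNF141 and AMPD3 show the third kind of site. RNF141, a RING finger protein, had a site at chr11:10509577-10509720 on the minus strand, 1982 nt past its end, in all 12 libraries. Of the 57 clusters downstream of RNF141, 45 matched the mitochondrial genome with at most 3 mismatches over 41 nt, the number of mismatches that the study's mapping allowed. AMPD3, an AMP deaminase that runs toward RNF141 from the other side, had 19 downstream clusters in 8 libraries, and all 19 matched the mitochondrial genome. AMPD3 and RNF141 together held all 64 members, in 13 merged sites, with such a match, and no other gene's downstream clusters had one. The transcripts matched past RNF141 included MT-RNR1 and MT-RNR2, the mitochondrial ribosomal RNAs, while the AMPD3 clusters, on the opposite strand, matched 0 transcripts in the sense direction. The bio2 libraries had the most clusters past RNF141, 8 and 9, against 2 to 7 in the other libraries. Likewise all 10 clusters past ENSG00000269242 matched RPL10 transcripts and lay in a RefSeq RPL10 pseudogene, and all 10 past RETSAT, retinol saturase, matched PEBP1 and lay in a PEBP1 pseudogene. The central 20 nt of the CRCP site occurred 14903 times in hg38, those of the GPD1L site 8 times and those of the TNFRSF10A site, 1334 nt past a receptor of the death ligand TRAIL, 25 times. These 3 sites were in 10 libraries each, none with the bio2 label.

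Over all members, 1054 (29.1%) matched a GENCODE transcript of another locus, on the same strand, with at most 3 mismatches over 41 nt. The share was 35.5% to 40.4% in the METTL1 and WDR4 libraries and 8.81% to 39.1% in the IGF2BP libraries, lowest in IGF2BP3 replicate 1. Of the 1697 members with a centre found once in the genome, 62 had such a transcript match and 0 matched the mitochondrial genome. Whether the reads of such clusters fitted elsewhere was not tested, as reads were not used here.

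The number of members per library was 678 and 695 for IGF2BP1, 195 and 345 for IGF2BP2, 227 and 264 for IGF2BP3, 112 and 100 for its bio2 libraries, 203 and 266 for METTL1 and 272 and 265 for WDR4. As a share of the library's clusters they were 4.89% and 4.62% for IGF2BP1, 4.69% and 4.96% for IGF2BP2, 3.71% and 4.10% for IGF2BP3, 1.87% and 1.80% in its bio2 libraries, 3.34% and 3.30% for METTL1 and 2.96% and 3.06% for WDR4. The 6 IGF2BP libraries without the bio2 label were thus above all METTL1 and WDR4 libraries, and the bio2 libraries below all of them. The mean was 3.83% ± 1.30 (SD, n = 8) for IGF2BP and 3.17% ± 0.186 (SD, n = 4) for METTL1 and WDR4. This difference of 0.662 percentage points did not pass the two-sided exact permutation test over the 495 assignments of libraries (p = 0.329, Benjamini-Hochberg adjusted over 14 tests p = 0.384, smallest possible p 0.00202). Leaving out both bio2 libraries gave a difference of 1.33 points (exact permutation p = 0.00952).

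**Figure D2:**
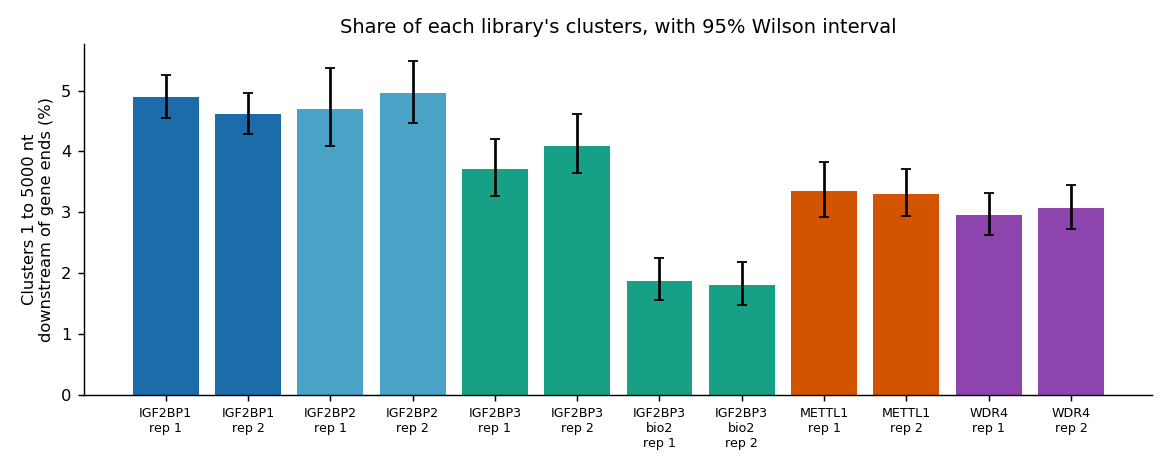
Share of each library's clusters that lay 1 to 5000 nt downstream of a protein-coding gene end (vertical axis, percent), with the 95% Wilson interval, which covers counting error only. The bars of the bio2 libraries, 1.87% and 1.80%, are the lowest and those of IGF2BP1 and IGF2BP2 the highest.

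Among the clusters that lay in no gene, the downstream positions took 32.4% to 36.0% in the IGF2BP libraries without the bio2 label, 16.1% and 14.7% in the bio2 libraries, and 12.9% to 18.1% in the METTL1 and WDR4 libraries. The means were 29.6% ± 8.86 (SD, n = 8) and 15.7% ± 2.54 (SD, n = 4). The exact permutation p was 0.0364, and 0.0636 after adjustment, above the threshold of 0.05. Without the bio2 libraries the families were 18.6 points apart (exact permutation p = 0.00476, the smallest that 10 libraries allow, not adjusted).

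Clusters were far denser downstream of gene ends than upstream of gene starts. The gene-free territory within 5000 nt was 82.0 Mb downstream and 82.3 Mb upstream. IGF2BP1 had 8.27 and 8.48 clusters per Mb downstream and 1.29 and 1.26 upstream. WDR4 had 3.32 and 3.23 downstream and 1.14 and 0.911 upstream. The downstream density was the higher in 12 of 12 libraries, and the log2 ratio within a library averaged 2.17 ± 0.658 (SD, n = 12 libraries, exact sign-flip permutation p = 0.000488, the smallest 12 libraries can give, adjusted p = 0.00684). Taking the protein as unit, no ratio could pass by design. The log2 ratio was 2.53 to 3.04 in the IGF2BP libraries without the bio2 label, 1.64 and 1.44 in the bio2 libraries and 1.32 to 1.83 for METTL1 and WDR4. The difference between the families, 0.89 on the log2 scale, gave an exact permutation p of 0.0343 and an adjusted p of 0.0636, above the threshold. With the bio2 libraries left out it was 1.20 (exact permutation p = 0.00476, not adjusted).

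Density declined with distance beyond 2000 nt in both families. In the IGF2BP libraries the mean was 3.75 ± 2.74 clusters per Mb (SD, n = 8) in the first 250 nt, 6.60 ± 4.23 between 250 and 500 nt, 5.70 ± 3.92 between 1500 and 2000 nt, 1.88 ± 1.61 between 4500 and 5000 nt and 0.811 ± 0.503 between 9000 and 10000 nt. In the METTL1 and WDR4 libraries the same distances held 3.49 ± 0.792, 4.21 ± 1.25, 4.31 ± 0.846, 1.69 ± 0.509 and 1.12 ± 0.458 clusters per Mb (SD, n = 4). Over most of the range the SD between IGF2BP libraries exceeded the gap between the families. For scale, the last 500 nt inside the gene held 55.4 ± 26.2 clusters per Mb in the IGF2BP libraries and 34.3 ± 3.72 in the others. Upstream of gene starts the METTL1 and WDR4 libraries had 3.43 ± 1.67 clusters per Mb in the nearest 250 nt, against 1.27 ± 0.601 in the IGF2BP libraries. By protein the means there were 4.84 for METTL1, 2.03 for WDR4, 1.80 for IGF2BP1, 0.788 for IGF2BP2 and 1.24 for IGF2BP3. The range over WDR4 libraries, 1.58 to 2.48, overlapped that of IGF2BP1, 1.13 to 2.48.

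**Figure D3:**
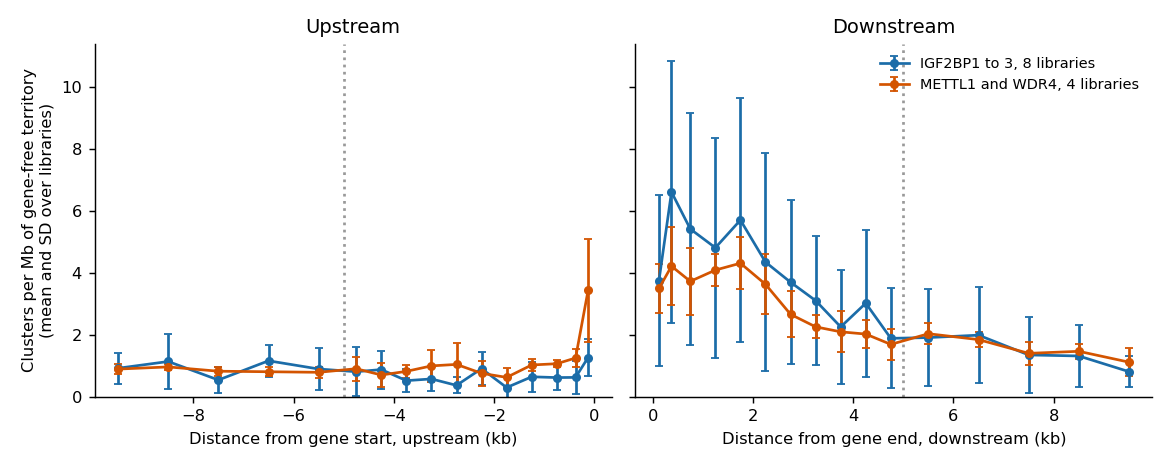
Clusters per Mb of gene-free territory (vertical axis) by distance upstream of the gene start (left) and downstream of the gene end (right), as mean and SD over the 8 IGF2BP and the 4 METTL1 and WDR4 libraries, with dotted lines at 5 kb. Downstream values decline from 6.60 and 4.21 between 250 and 500 nt to 0.811 and 1.12 between 9000 and 10000 nt, while upstream values beyond 250 nt lie between 0.298 and 1.25; SD bars are cut at 0.

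The median distance from the gene end ran from 1696.5 to 1859 nt in the IGF2BP libraries and from 1649 nt to 2047 nt, both in METTL1, in the others. The mean of the library medians was 1800 ± 58.0 nt (SD, n = 8) for IGF2BP and 1812 ± 173 nt (SD, n = 4) for METTL1 and WDR4, with a difference of -11.6 nt (exact permutation p = 0.836, adjusted p = 0.836). With the limit set at 10000 nt the difference was -430.2 nt (exact permutation p = 0.00404). Within 1000 nt lay 29.5% ± 3.87 of the IGF2BP members and 26.2% ± 3.73 of the METTL1 and WDR4 members (exact permutation p = 0.200, adjusted p = 0.255). Members inside a gene on the other strand made up 31.8% ± 2.70 and 29.0% ± 3.00 (exact permutation p = 0.127, adjusted p = 0.198). None of these 3 differences passed the test at the limit of 5000 nt.

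From 14.3% to 40.3% of a library's members lay past a gene that also had a 3' UTR cluster in that library. In IGF2BP1, 268 of 678 and 280 of 695 members (39.5% and 40.3%) belonged to a gene that had a 3' UTR cluster in the same library. The share was 28.2% and 28.1% for IGF2BP2, 25.1% and 26.1% for IGF2BP3, 19.6% and 18.0% in its bio2 libraries, 15.3% and 14.3% for METTL1 and 17.3% and 18.1% for WDR4. All but 1 of the IGF2BP libraries were above every METTL1 and WDR4 library, the exception being bio2 replicate 2. The means were 28.1% ± 8.15 (SD, n = 8) against 16.2% ± 1.77 (SD, n = 4), 11.9 points apart (exact permutation p = 0.0162, adjusted p = 0.0453). Libraries of 1 protein count separately in this test, and with the protein as unit no difference could pass by design. The number of genes with any 3' UTR cluster moved with it: they were 14.7% and 15.6% of all protein-coding genes in the IGF2BP1 libraries, 6.22% to 9.12% in the other IGF2BP libraries and 4.97% to 6.54% in the METTL1 and WDR4 libraries. When the 3' UTR cluster could come from any library the difference was 2.90 points (exact permutation p = 0.414), and without members in RefSeq genes it was 8.67 points (exact permutation p = 0.0646).

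Intron clusters gave the comparison within each library. Their gene had a 3' UTR cluster in 12.1% to 43.5% of cases, against 14.3% to 40.3% for members. The members were higher in 4 of 12 libraries, and the mean difference of -1.09 ± 4.31 points (SD, n = 12) did not pass the exact sign-flip permutation test (p = 0.391, adjusted p = 0.421). Clusters past the end were thus not detectably more often tied to a 3' UTR cluster than intron clusters were.

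**Figure D4:**
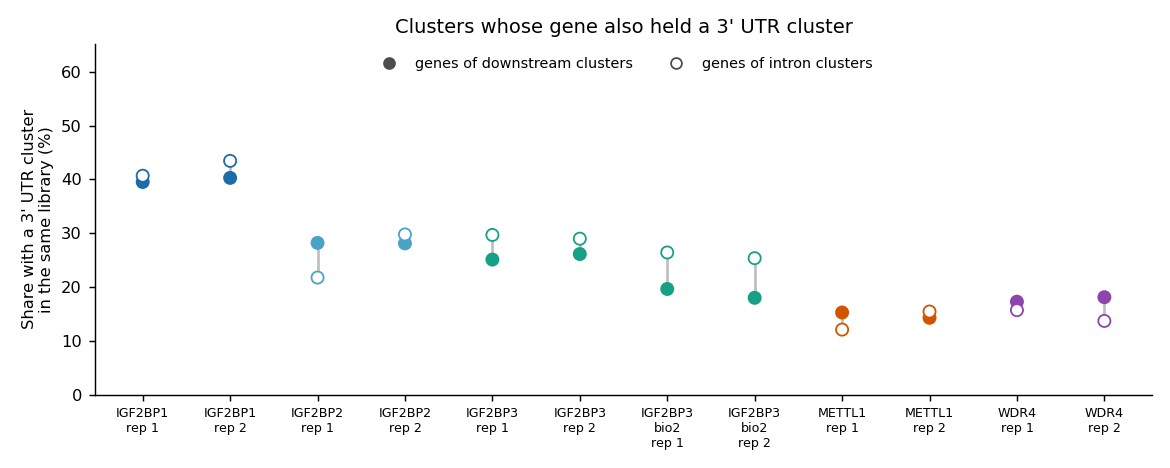
Share of clusters whose gene also had a 3' UTR cluster in the same library (vertical axis, percent), for clusters downstream of gene ends (filled) and intron clusters of protein-coding genes (open), by library. Filled points run from 14.3% in METTL1 replicate 2 to 40.3% in IGF2BP1 replicate 2, and the open point of a library is close to its filled point, with the filled point higher in 4 of 12 libraries.

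At the level of genes, 457 of the 1065 genes with a member (42.9%) had a 3' UTR cluster in at least 1 library, against 22.5% of all 20033 protein-coding genes. Conversely, 10.1% of the 4509 genes with a 3' UTR cluster had a member, against 5.32% of all protein-coding genes. RNA levels were not used here, and their part in both counts was not tested. Of the 369 genes with a site in at least 2 libraries of 1 protein, 170 (46.1%) had a 3' UTR cluster and 199 had none in any library. PDCD10, LEAP2, ALYREF, GTF3C6 and SAA4 belong to the latter, UGDH, RGP1, BPIFB2 and PCBP2 to the former.

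Members with and without a 3' UTR cluster in the gene lay at similar distances. The median distance was 1676 ± 303 nt (SD, n = 12 libraries) for those with one and 1833 ± 93.8 nt for those without, and was the longer for those with one in 3 of 12 libraries. Within 1000 nt of the end 24.7% ± 7.30 of members had a gene with a 3' UTR cluster, and beyond 1000 nt 23.8% ± 10.1. The motif CATA, CATC or CATT was in 50.4% ± 18.6 of members with a 3' UTR cluster in the gene and in 46.9% ± 20.1 of those without, higher in 9 of 12 libraries. These gaps are small beside the spread over libraries, and none was tested.

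The share of members with CATA, CATC or CATT differed between the proteins. It was searched on the cluster's strand only, in the 41 nt around the midpoint, and 34.8% of all such windows of the downstream territory hold it. It was in 45.4% and 50.9% of members for IGF2BP1, 40.5% and 34.8% for IGF2BP2, 76.2% and 72.0% for IGF2BP3, 72.3% and 67.0% in its bio2 libraries, 20.7% and 26.7% for METTL1 and 30.9% and 34.7% for WDR4. IGF2BP3 was thus the highest in all 4 libraries, IGF2BP2 replicate 2 and WDR4 replicate 2 were level with the territory, and METTL1 was below it. The means were 57.4% ± 16.3 (SD, n = 8) against 28.2% ± 6.01 (SD, n = 4), 29.1 points apart (exact permutation p = 0.00606, adjusted p = 0.0212). IGF2BP3 supplied 4 of these 8 IGF2BP libraries, and with the protein as unit no difference could pass by design. Against the 3' UTR clusters of the same library the members were higher in 2 of 12, the IGF2BP3 libraries without the bio2 label, by 12.6 and 10.0 points. Over all libraries the difference was -3.13 ± 7.66 points (SD, n = 12, exact sign-flip permutation p = 0.184, adjusted p = 0.255).

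**Figure D5:**
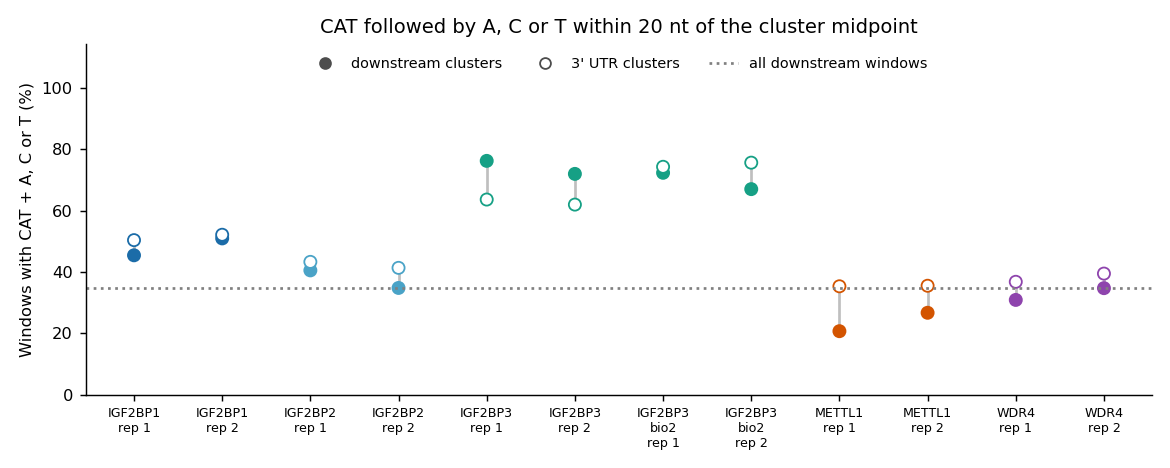
Share of 41-nt windows with CATA, CATC or CATT (vertical axis, percent) in clusters downstream of gene ends (filled) and in 3' UTR clusters (open), by library, with the share in all windows of the downstream territory, 34.8%, as a dotted line. The 4 IGF2BP3 libraries lie at 67.0% or above, and both METTL1 libraries lie below the line for downstream clusters.

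The polyadenylation hexamer was more frequent past IGF2BP members than past METTL1 and WDR4 members. AATAAA or ATTAAA began within 100 nt downstream of the midpoint, on the cluster's strand, in 11.2% of all windows of the territory. It did so in 11.1% and 10.8% of members for IGF2BP1, 13.8% and 11.3% for IGF2BP2, 15.0% and 14.8% for IGF2BP3, 13.4% and 10.0% in its bio2 libraries, 7.39% and 4.89% for METTL1 and 8.82% and 9.43% for WDR4. All 8 IGF2BP libraries were above all 4 others. The means were 12.5% ± 1.95 (SD, n = 8) against 7.63% ± 2.02 (SD, n = 4), 4.88 points apart (exact permutation p = 0.00404, adjusted p = 0.0212). Again no difference could pass by design with the protein as unit. The IGF2BP values thus lie around the territory's share and the METTL1 and WDR4 values below it. Here too the territory was not matched for GC content, which differed between the proteins as given above, and its part was not tested. Among single-copy members the difference was 2.34 points (exact permutation p = 0.218) and within 2000 nt of the end 3.55 points (exact permutation p = 0.131). The hexamer was less frequent past members than past 3' UTR clusters, by 3.35 ± 3.12 points (SD, n = 12, exact sign-flip permutation p = 0.00488, adjusted p = 0.0212), with members higher in 2 of 12 libraries.

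The number of genomic copies of the members varied from protein to protein. The central 20 nt of the member occurred once in hg38 in 46.2% and 50.8% of members for IGF2BP1, 36.9% and 35.9% for IGF2BP2, 67.8% and 68.2% for IGF2BP3, 71.4% and 65.0% in its bio2 libraries, 31.0% and 35.0% for METTL1 and 39.0% and 35.5% for WDR4. The means were 55.3% ± 14.6 (SD, n = 8) against 35.1% ± 3.25 (SD, n = 4), 20.2 points apart (exact permutation p = 0.0263, adjusted p = 0.0613), which did not hold up after adjustment, nor without the bio2 libraries (15.9 points, exact permutation p = 0.0810). IGF2BP2 lay at the level of METTL1 and WDR4, and IGF2BP3 well above. Centres with over 100 copies made up 3.57% to 34.0% of a library's members, lowest in the bio2 libraries and highest in METTL1 replicate 1. In 3' UTR clusters, single-copy centres made up 56.9% to 84.0%.

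Merged sites recurred about as often as clusters in general. Of the 1762 sites, 561 (31.8%) were found in at least 2 libraries of 1 protein, against 31.9% of all 43870 merged sites of the series and 51.2% of 3' UTR sites. Sites in a single library made up 60.0%, against 60.9% of all merged sites and 40.4% of 3' UTR sites. IGF2BP1 had 451 recurring downstream sites, IGF2BP3 212, IGF2BP2 129, WDR4 49 and METTL1 39, and IGF2BP3 had 4 libraries to recur in. As shares of the downstream sites these were 25.6%, 12.03%, 7.32%, 2.78% and 2.21%. Over all merged sites the shares were 22.9%, 16.5%, 6.39%, 5.05% and 3.47%, so the proteins ranked in the same order there. Of the 561, 490 (87.3%) recurred for IGF2BP proteins alone, 30 (5.35%) for METTL1 or WDR4 alone and 17 (3.03%) for both METTL1 and WDR4. Over all 14011 recurring sites of the series these shares were 79.0%, 9.19% and 5.71%, and the IGF2BP proteins had 8 of the 12 libraries. Single-copy widest clusters made up 300 of the 561 (53.5%), and 110 had over 100 copies. The 561 sites had a median distance of 1859 nt from the gene end. In at least 8 libraries were 41 sites (2.33%), against 3.85% of all merged sites and 8.28% of 3' UTR sites. With all 5 proteins were 31 sites (1.76%), against 2.79% of all and 5.72% of 3' UTR sites. The sites past ONECUT1 and RNF141 were the 2 in all 12 libraries (0.114%), against 0.424% of all and 0.657% of 3' UTR sites.

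Between the replicate libraries of a group, 66.2% of IGF2BP1 members, 48.7% of IGF2BP2, 67.4% of IGF2BP3, 62.7% of bio2, 17.1% of METTL1 and 17.9% of WDR4 members overlapped a cluster of the other replicate. The mean over the 6 groups was 46.7%, against 52.3% for all clusters and 60.3% for 3' UTR clusters. Between the IGF2BP3 libraries with and without the bio2 label the overlap was 23.3% for members and 35.6% for all clusters. Between METTL1 and WDR4 it was 13.6% for members and 19.9% for all clusters, and between the families 13.9% and 18.5%. No test was made of these overlaps.

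Some genes held a whole row of sites. HSD17B12, an enzyme of very-long-chain fatty acid elongation, had 11 sites 187 to 4226 nt past its end, and all 11 recurred for IGF2BP1 and 6 for IGF2BP2. Its clusters per library were 11 and 11 in IGF2BP1, 6 and 8 in IGF2BP2, 3 and 5 in IGF2BP3, 0 and 0 in the bio2 libraries, 1 and 2 in METTL1 and 2 and 2 in WDR4. The gene had a 3' UTR cluster in 1 library. Of its 51 downstream clusters 24 matched a transcript of another gene and 18 were single-copy.

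SAA4, which encodes a constitutive serum amyloid A protein of liver, had 11 sites 544 to 3183 nt past its end, of which 9 recurred for IGF2BP1. It had 10 and 10 clusters in the IGF2BP1 libraries, 0 and 4 in IGF2BP2, 3 and 4 in IGF2BP3 and at most 2 in the others. It had a 3' UTR cluster in 0 libraries. Of the 34 clusters past SAA4, 7 matched a transcript and 20 were single-copy. ALYREF had 12 sites, of which 6 recurred for IGF2BP1 and 2 for METTL1, and a 3' UTR cluster in 0 libraries. Of the 42 clusters past ALYREF, 22 matched a transcript and 24 were single-copy. ANKRD36 and ONECUT1 had the most recurring METTL1 sites, 3 each. ANKRD36 had 7 and 7 clusters in the METTL1 libraries, 1 in IGF2BP1 replicate 1, 1 in IGF2BP2 replicate 2, 1 in WDR4 replicate 1 and 0 in the other 7. Of its 17 downstream clusters 3 were single-copy and 4 matched a transcript, LINC00342. AMPD3, CRCP and ONECUT1 had 2 recurring WDR4 sites each, as many as any gene, and all those of AMPD3 matched the mitochondrial genome as above. Over all genes, 781 had 1 site, 145 had at least 3 and 41 had at least 3 recurring sites.

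Genes of defined function were found among the members to different degrees. Of 33 plasma protein genes typical of liver, 7 had a member and 4 a recurring site, against 5.32% and 1.84% of all protein-coding genes. Those with a recurring site were APOB, APOH, FGA and F2, which encode apolipoprotein B, apolipoprotein H, the fibrinogen alpha chain and prothrombin. FGA had 8 clusters in 6 libraries, all single-copy and all from IGF2BP1 or IGF2BP3, while the 4 clusters past APOB came from IGF2BP2 and WDR4 and had centres found more than once. Of 79 cytosolic ribosomal protein genes 13 had a member. Zinc finger genes of chromosome 19 had a member in 32 of 249 cases and a recurring site in 12. Replication-dependent histone genes, whose RNA ends in a stem-loop rather than a poly(A) tail, had a member in 4 of 70 cases (5.71%). This was near the 5.32% of all protein-coding genes. Histone genes had a recurring site in 0 cases, which the 1.84% over all genes also allows. Of 22 genes for factors that cut and polyadenylate mRNA 0 had a member, a count that the share over all genes also allows, and 13 had a 3' UTR cluster. RNA level and gene length were not matched in these counts.

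Of 9 transcripts that the study tethered or that are known IGF2BP targets, 1 had a member, against 5.32% of all protein-coding genes. This was ZDHHC9, a palmitoyltransferase gene. Its site was found in both IGF2BP1 libraries, 3135 nt past the gene end, and ZDHHC9 had a 3' UTR cluster in 9 libraries. Of its 2 downstream clusters 0 were single-copy and 0 held CATA, CATC or CATT. Among the known IGF2BP targets, IGF2 had a 3' UTR cluster in 12 libraries, MYC in 1, and ACTB and CD44 in 0, and each had 0 members.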

How the data were processed

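PAR-CLIP of 5 proteins was made in 12 libraries of HepG2. The authors clipped and collapsed reads, kept those over 15 nt, mapped them with bowtie (at most 3 mismatches and 10 positions) and called clusters with PARalyzer. Versions were not given in the sources used here, and per the submitters' notes the build was hg38. The deposited files hold cluster intervals without score or read count, so depth per cluster is unknown and the number of clusters sets the precision. Starts were read as counted from 1, since the base before a cluster was G, after which RNase T1 cuts, in 74.2% to 94.9% of a library's clusters.

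Midpoints were classed on their own strand by GENCODE release 44, and RefSeq genes, hg38 sequence and copies of the central 20 nt were added. Near matches were found with blastn 2.17.0 in 41-nt windows. RefSeq strands came from its promoter table or from GENCODE symbols. Sites were merged at 1 nt of overlap.

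Libraries were the units of exact permutation tests, 8 IGF2BP against 4 METTL1 and WDR4, and of exact sign-flip tests, with Benjamini-Hochberg adjustment over 14 tests. Code ran in Python 3.11.15 with numpy 2.4.6, pandas 2.3.3 and scipy 1.17.1, and was tested on simulated data. Named were the 10 sites in the most libraries, the 15 such single-copy sites, the 3 genes with the most recurring sites per protein, and the tethered and known target transcripts with a member. No sequence is printed for sites on chromosome 8, the second ONECUT1 site and the sites past ALYREF, GTF3C6 and CRCP. An item covered by the naming rules is not reported here. Plasma protein genes with values were picked for having recurring sites. The members and lists were chosen with earlier results of these data known. Whether equal replicate numbers mark pairs was checked by correlating the replicate differences of groups across sites. The 15 correlations ran from -0.0353 to 0.0484, so no pairing was assumed.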

Additional observations from a re-analysis of the deposited data

Results flagged for a closer look

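In the comparison of members with intron clusters, IGF2BP2 replicate 1 stood far from the other IGF2BP libraries: its members' genes had a 3' UTR cluster 6.44 percentage points more often than its intron clusters' genes, while the other 7 IGF2BP libraries had differences below 0. It was the 1 flag among 39 groups of libraries examined for a value far from the rest, and chance flags about 5% of groups. This library had the fewest clusters as deposited, 4581, and 195 members. Its part in the result was not tested.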

How the results depend on the processing

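For 16 results, 357 alternatives were computed, of which 192 left out 1 library. Of those 192, 185 kept direction and side of the threshold, which is applied here to unadjusted p. The ranges over omitted libraries were -65.7 to 66.9 nt for the median distance (above 0 without METTL1 replicate 2, 66.9 nt, or bio2 replicate 2, 3.21 nt), 17.9 to 22.9 points for single-copy centres (p = 0.0545 by exact permutation without METTL1 replicate 1), 0.81 to 1.04 for the difference in log2 density ratio (p over 0.05 without METTL1 replicate 1 or 2 or WDR4 replicate 1, highest 0.0727 by exact permutation), and -4.56 to -2.08 points for the motif against 3' UTR clusters (exact permutation p = 0.0381 without IGF2BP3 replicate 1).

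Without the bio2 libraries the share of clusters differed by 1.33 points and now passed, the median distance by 17.9 nt (reversed), single-copy centres by 15.9 points (no longer passed), and members against intron clusters by 0.10 points (reversed). With the protein as unit, where the smallest exact p is 0.1 or 0.0625 by design, nothing could pass: the differences were 15.6 points of intergenic clusters, 13.9 for the 3' UTR cluster, 15.9 for single-copy centres, 24.3 for the motif, 4.63 and -3.35 for the hexamer, and 1.03 and 2.19 for the log2 ratio.

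With the replicate block, over 225 assignments within replicate number, no call changed: exact permutation p was 0.356 for the share (0.662 points), 0.0489 for the intergenic share (13.9), 0.0267 for the 3' UTR cluster (11.9), 0.0356 for single-copy centres (20.2), 0.0133 for the motif (29.1) and 0.00444 for the hexamer (4.88).

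Within 2000 nt the hexamer difference was 3.55 points (no longer passed) and members against intron clusters 0.242 (reversed), with 905 sites and 627 genes. Within 10000 nt the intergenic share differed by 16.2 points and the log2 ratio by 0.37, both no longer past the threshold, the median distance by -430.2 nt and members against intron clusters by -2.84 points, both now past it. With single-copy clusters alone there were 777 sites and 612 genes, the hexamer difference was 2.34 (no longer passed), that for the other strand -3.27 (reversed), the motif against 3' UTR clusters 1.22 (reversed), and members against intron clusters -3.49 (now passed). Without RefSeq genes the 3' UTR cluster difference was 8.67, with a 3' UTR cluster from any library 2.90, and with wider clusters the intergenic share 10.5 points, all no longer past the threshold.

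Added after seeing the data were single-copy clusters without the bio2 libraries, with the share 1.40 points (now passed), median distance 15.3 nt, within 1000 nt -0.0619 points, other strand -2.80 and motif against 3' UTR clusters 2.45 (all reversed) and hexamer 3.25 (no longer passed); and intergenic clusters without a near match, with a median distance of 52.1 nt and motif against 3' UTR clusters of 2.92 points (both reversed) and the other calls kept. The causes were not tested. Depth per cluster is unknown, which limits each library to the clusters its sequencing allowed.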
